A study of Mus musculus with 6 samples.

Results

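Mammalian cells make cholesterol by closing the linear molecule oxidosqualene into lanosterol and then trimming, reducing and isomerising that first sterol on the endoplasmic reticulum until cholesterol remains. The enzymes of this stretch are kept in step by SREBP-2, a membrane-bound transcription factor that is released to the nucleus when the reticulum runs low in sterols. Macrophages take up cholesterol with lipoproteins and debris as well as making it, and sterol intermediates of this stretch, desmosterol among them, are known ligands of the LXR receptors. The 9 genes described here encode the lanosterol synthase Lss and the enzymes after it, Cyp51, Tm7sf2, Msmo1, Nsdhl, Hsd17b7, Ebp, Sc5d and Dhcr7. They were chosen by name from the 23060 gene names of the deposited table, all 9 had a row, and all 9 passed the filter on low values, a 6-library mean of at least 1 FPKM.

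Expression was measured by RNA-seq in 3 tachypaced and 3 control libraries of WT cells that the labels call HL-1, a line derived from mouse atrial cardiomyocytes. Tachypacing is rapid electrical stimulation, a culture model of the atrial rate in atrial fibrillation, and the series asked which transcripts change in atrial myocytes under it. Both groups were grown in the same serum-containing Claycomb Medium with norepinephrine, glutamine and antibiotics, and the labels give neither the pacing rate nor its duration. Nothing in the labels says that replicates came from separate cultures, and p-values therefore cover the spread between libraries, which could be technical.

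The markers went against the line name. Of 18 cardiomyocyte marker genes, 8 were listed at 0 in every library (Myh6, Myl7, Actc1, Nppb, Nkx2-5, Gata4, Tbx5 and Pln), and the list summed to 3.74 to 4.02 FPKM in tachypaced and 3.24 to 4.02 FPKM in control libraries. Of 16 macrophage markers, 12 averaged at least 1 FPKM, of which 5 passed the test as higher and 0 as lower, where 2.30% of the 10361 tested genes passed as higher and 3.22% as lower, while Mrc1, C1qa and C1qb were at 0. The macrophage list, to which osteopontin (Spp1) gave most, summed to 14460 to 16860 FPKM in tachypaced and 10920 to 12550 FPKM in control libraries. All 7 fibroblast markers were below the level tested, and of 6 endothelial markers 1 reached it and did not pass. FPKM counts fragments per transcript length and per library size, so levels of different genes can be compared. Read depth is unknown, since the lowest values showed no step worth 1 read. Control replicate 1 was set apart from its group on the first principal component, which held 56.4% of the variance. It lay at 1.11, against 6.19 to 12.5 in tachypaced libraries and -13.4 and -17.4 in control replicates 2 and 3.

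The stretches upstream of the annotated starts are shown first, because genes that answer to SREBP-2 are known to carry its sterol regulatory element next to sites for the co-factors NF-Y and Sp1. Sequences come from the RefSeq promoter table for GRCm38.p6, which had an entry for all 9 genes, with 11 start sites in all because Dhcr7 has 3. The 250 bases before each start were searched on both strands for TCACNCCAC (sterol regulatory element), CCAAT (NF-Y) and GGGCGG (GC box, bound by Sp1), and no match of a motif overlapped one of another. CCAAT was found before at least one start of all 9 genes, against 37.5% of the 27025 genes in the table. GGGCGG was also found before all 9, against 35.4% of genes. TCACNCCAC was found before none of the 11 starts. The search took exact letters only, so elements that differ from them would be missed. Of all 32851 windows 1.05% held it, and so did 1 of the 7 mevalonate pathway genes that had an entry. The windows of the 9 genes ran from 44.8% to 73.6% G and C, against a median of 52.4% over all windows, and the part of base composition in these matches was not tested. A match describes letters in a window and is not evidence of binding, and a missing match is not evidence that an element is absent. The 5 stretches below contrast genes whose groups separated (Lss, Nsdhl and Hsd17b7) with genes whose groups overlapped (Ebp and Sc5d). They start 200 bases before the RefSeq start and leave out bases that GENCODE M21 places in an exon. The GC boxes of Sc5d, and a GC box of Hsd17b7 at 227 to 222 bases, lie further upstream. An inverted CCAAT of Hsd17b7 at 12 to 8 bases lies in the part left out near the start. The CCAAT and GGGCGG matches of either strand within the stretches are in capitals:
Lss (chr10:76531405-76531587, plus strand): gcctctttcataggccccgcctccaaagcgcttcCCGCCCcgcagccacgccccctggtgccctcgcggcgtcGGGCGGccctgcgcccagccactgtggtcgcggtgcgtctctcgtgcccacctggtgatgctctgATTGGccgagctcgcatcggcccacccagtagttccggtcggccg
Nsdhl (chrX:72918321-72918520, plus strand): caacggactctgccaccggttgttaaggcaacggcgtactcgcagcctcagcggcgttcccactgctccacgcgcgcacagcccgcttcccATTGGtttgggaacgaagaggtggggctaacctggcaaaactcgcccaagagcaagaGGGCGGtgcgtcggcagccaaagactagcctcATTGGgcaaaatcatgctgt
Hsd17b7 (chr1:169969242-169969405, minus strand): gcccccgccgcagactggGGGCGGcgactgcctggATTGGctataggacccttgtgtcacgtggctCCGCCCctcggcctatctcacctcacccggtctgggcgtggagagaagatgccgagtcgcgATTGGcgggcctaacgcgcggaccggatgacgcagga
Ebp (chrX:8193513-8193712, minus strand): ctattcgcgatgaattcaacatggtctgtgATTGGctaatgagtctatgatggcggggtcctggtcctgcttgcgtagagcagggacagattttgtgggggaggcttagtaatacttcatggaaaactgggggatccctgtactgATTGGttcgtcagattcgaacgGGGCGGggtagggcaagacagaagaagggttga
Sc5d (chr9:42264301-42264500, minus strand): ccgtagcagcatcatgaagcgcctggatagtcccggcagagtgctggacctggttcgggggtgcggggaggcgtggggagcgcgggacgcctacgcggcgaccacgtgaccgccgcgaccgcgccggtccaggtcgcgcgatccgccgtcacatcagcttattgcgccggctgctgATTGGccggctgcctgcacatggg
In Lss an inverted CCAAT lay 62 to 58 bases before the start and GC boxes lay at 166 to 161 and 127 to 122 bases. In Nsdhl a GC box lay between inverted CCAAT boxes at 109 to 105 and 20 to 16 bases. Ebp had the same elements, with inverted CCAAT at 170 to 166 and 55 to 51 bases and a GC box at 33 to 28 bases, so these matches did not separate the genes with distinct groups from the others.

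In tachypaced libraries Lss and Dhcr7, the first and the last of the 9 enzymes, fell, and the other 7 did not pass the test. Mean FPKM fell by 46.2% for Lss and by 22.5% for Dhcr7. In bulk RNA, fewer cells of a type and less RNA per cell cannot be told apart. Thus 2 of the 9 genes passed as lower and 0 as higher, where 3.22% of the 10361 tested genes passed as lower and 2.30% as higher (limma-trend, with a threshold of 0.05 on the Benjamini-Hochberg adjusted p). All 9 log2 fold changes were below 0, with a median of -0.33, against a median of -0.04 over all tested genes, of which 58.9% were below 0. In 6 of the 9 genes every tachypaced library lay below every control library, a separation seen in 22.4% of the tested genes. These 6 were Lss, Cyp51, Msmo1, Nsdhl, Hsd17b7 and Dhcr7. They were also the members with an unadjusted p under 0.05 (limma-trend), as had 3124 of the 10361 tested genes.

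**Figure D1:**
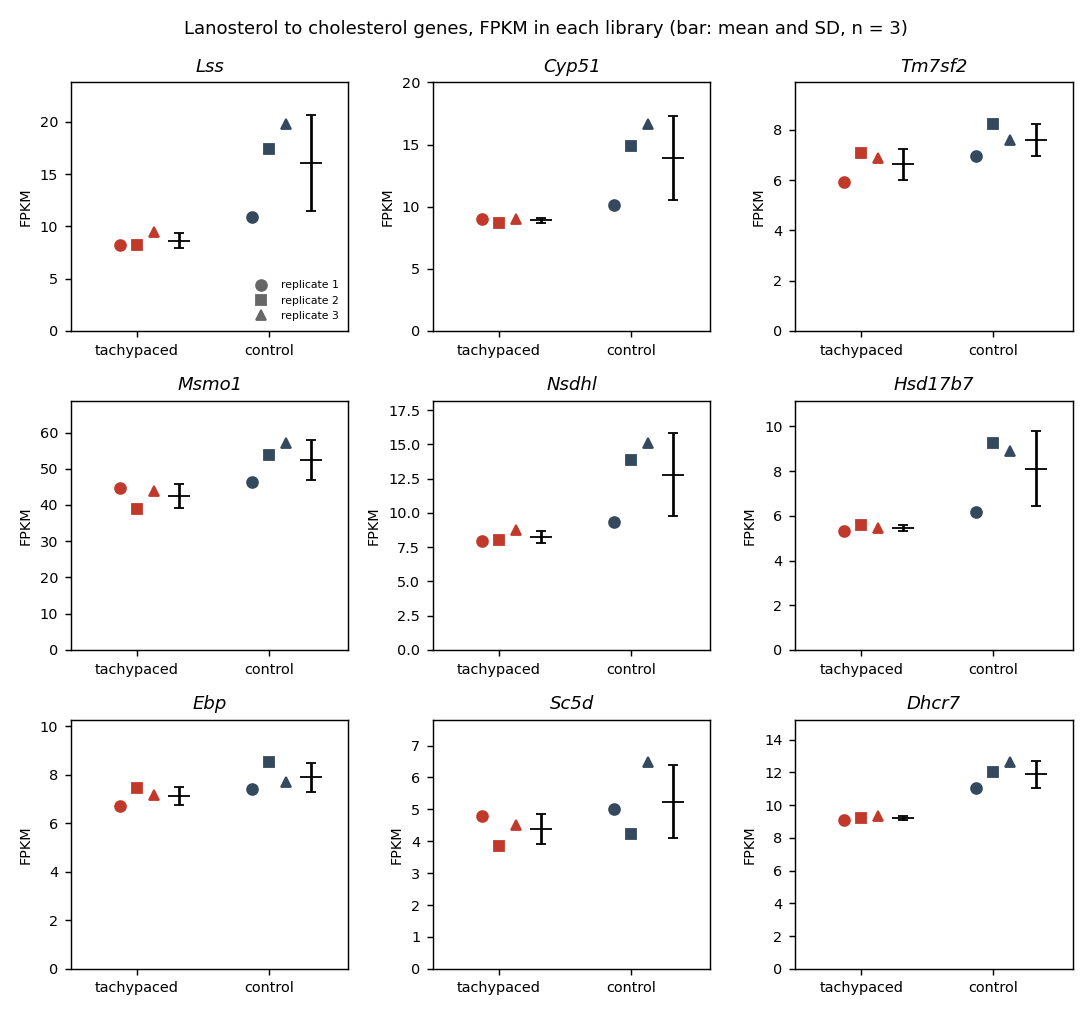
FPKM of each of the 9 genes in the 3 tachypaced (left, red) and 3 control libraries (right, dark), with marker shape giving the replicate and the bar the mean and SD (n = 3). Control replicate 1 (circle) is the lowest control in 8 of the 9 panels, and Lss runs from 8.18 to 9.45 FPKM in tachypaced and 10.9 to 19.8 FPKM in control libraries.

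Lss, lanosterol synthase, closes oxidosqualene into the first sterol ring system. The gene lies on chromosome 10 from 76531588 to 76557138 on the plus strand (GRCm38, GENCODE M21). It stood at 8.18, 8.25 and 9.45 FPKM in the tachypaced libraries, against 10.9, 17.4 and 19.8 FPKM in the control libraries. The tachypaced values lay close together and below all controls, and control replicate 1 lay nearer to them than to the other controls. The log2 fold change of FPKM + 1 was -0.79 (SE 0.18, adjusted p = 0.0459, limma-trend), with a 95% confidence interval from -1.19 to -0.39. An antisense gene shares 381 exon bases with Lss on the other strand and was not analysed here. The strand setting of the counting is not given in the sources used here, so reads of the overlap cannot be told apart.

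Cyp51, the cytochrome P450 that removes the first methyl group of lanosterol and the enzyme that azole antifungals block in yeasts, lies on chromosome 5 from 4081145 to 4104746 on the minus strand. It stood at 9.02, 8.69 and 9.0004 FPKM in tachypaced libraries, against 10.1, 14.9 and 16.7 FPKM in control libraries. The groups did not overlap, and the nearest values were those of tachypaced replicate 1 and control replicate 1. The log2 fold change of -0.56 (SE 0.15) did not pass (adjusted p = 0.0558, limma-trend). Its exons share 166 bases with those of Akap9 on the opposite strand, a gene listed at 9.05 to 10.7 FPKM.

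Tm7sf2 encodes the sterol reductase that acts after Cyp51, a step it shares with the lamin B receptor Lbr. It lies on chromosome 19 from 6062821 to 6068373 on the minus strand and stood at 5.93, 7.08 and 6.89 FPKM in tachypaced libraries, against 6.96, 8.25 and 7.58 FPKM in control libraries. The groups overlapped, because control replicate 1 lay below tachypaced replicate 2. The log2 fold change was -0.17 (SE 0.09, adjusted p = 0.211, limma-trend; interval -0.37 to 0.02). Tm7sf2 shares 532 exon bases on the same strand with Vps51, listed at 10.2 to 14.2 FPKM, so its reads could be divided either way. Lbr stood at 17.6, 17.2 and 18.7 FPKM in tachypaced and 21.1, 20.5 and 22.3 FPKM in control libraries. Its groups did not overlap, and its log2 fold change of -0.24 (SE 0.06) missed the threshold at an adjusted p of 0.0511 (limma-trend).

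Msmo1, Nsdhl and Hsd17b7 encode the oxidase, the decarboxylating dehydrogenase and the ketoreductase that together take the remaining extra methyl groups off the ring. Msmo1, on chromosome 8 from 64718139 to 64733792, stood at 44.6, 38.8 and 44.0 FPKM in tachypaced libraries, against 46.2, 53.8 and 57.2 FPKM in control libraries. Its groups were separated by less than the spread within either, and its log2 fold change was -0.29 (SE 0.09, adjusted p = 0.0699, limma-trend). Nsdhl, on chromosome X from 72918557 to 72958514, stood at 7.91, 7.9992 and 8.72 FPKM in tachypaced libraries, against 9.36, 13.9 and 15.1 FPKM in control libraries. Hsd17b7, on chromosome 1 from 169949535 to 169969241, stood at 5.31, 5.58 and 5.43 FPKM in tachypaced libraries, against 6.19, 9.27 and 8.89 FPKM in control libraries. In both genes the tachypaced libraries lay together below the controls, and control replicate 1 was the control nearest to them. The log2 fold changes of -0.56 for Nsdhl (SE 0.15) and -0.48 for Hsd17b7 (SE 0.13) had the same adjusted p of 0.0558 (limma-trend).

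Ebp and Sc5d work on the ring double bonds, Ebp as the isomerase that shifts one and Sc5d as the desaturase that adds another. Ebp, on chromosome X from 8185329 to 8193512, stood at 6.71, 7.46 and 7.18 FPKM in tachypaced libraries, against 7.42, 8.54 and 7.70 FPKM in control libraries. Sc5d, on chromosome 9 from 42251595 to 42264256, stood at 4.78, 3.86 and 4.51 FPKM in tachypaced libraries, against 5.01, 4.23 and 6.50 FPKM in control libraries. Both genes overlapped between groups, Ebp through control replicate 1 and Sc5d through control replicate 2. Their log2 fold changes were -0.13 for Ebp (adjusted p = 0.269; interval -0.30 to 0.04) and -0.20 for Sc5d (adjusted p = 0.321; interval -0.50 to 0.09, limma-trend).

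Dhcr7 carries out the last reduction to cholesterol on the branch through dehydrocholesterol, and its human counterpart is mutated in Smith-Lemli-Opitz syndrome. The gene lies on chromosome 7 from 143823145 to 143848410 on the plus strand. It stood at 9.11, 9.19 and 9.33 FPKM in tachypaced libraries, against 11.01, 12.002 and 12.6 FPKM in control libraries. These were the tightest tachypaced values of the 9 genes, with a coefficient of variation of 1.24%, against 6.93% in the control libraries. The log2 fold change was -0.33 (SE 0.07, adjusted p = 0.0435, limma-trend; interval -0.49 to -0.18), smaller than that of Lss and with a smaller error.

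**Figure D2:**
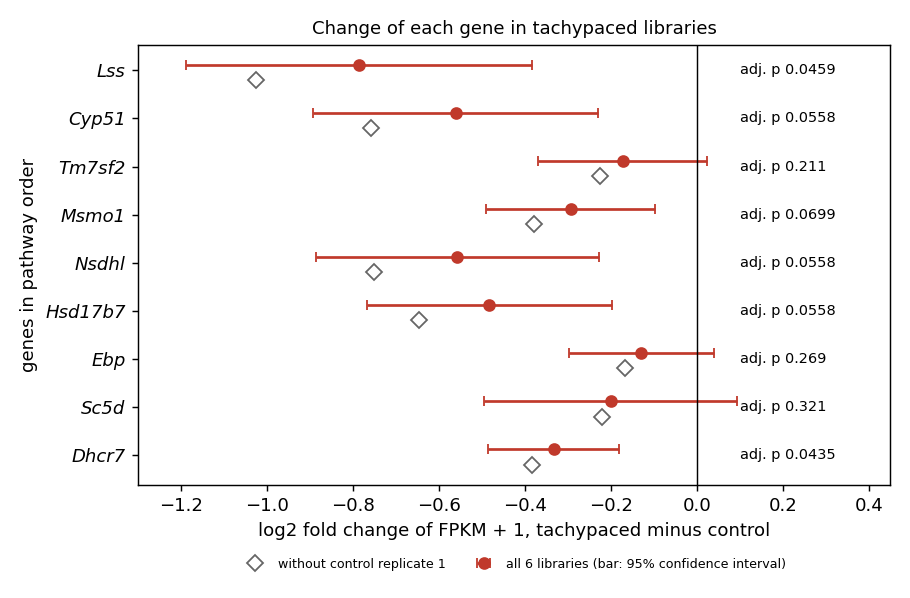
Log2 fold change of FPKM + 1 in tachypaced minus control libraries for the 9 genes in pathway order, with 95% confidence intervals from all 6 libraries (filled circles) and the value without control replicate 1 (open diamonds). Lss (-0.79) and Dhcr7 (-0.33) pass the adjusted p threshold, and leaving out control replicate 1 takes each value further below 0, to -1.03 for Lss.

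The calls rested on which libraries were compared. Leaving out control replicate 1, the control nearest to the tachypaced libraries, gave 6 of the 9 genes as lower, where 18.8% of all tested genes were then lower and 11.2% higher. The adjusted p without it was 0.000437 for Lss, 0.000502 for Cyp51, 0.00515 for Msmo1, 0.000564 for Nsdhl, 0.000756 for Hsd17b7 and 0.00312 for Dhcr7 (limma-trend). Leaving out any other single library left 0 of the 9 past the threshold, where 0% to 0.00966% of all tested genes were lower, with adjusted p from 0.0769 to 0.173 for both Lss and Dhcr7. All 9 log2 fold changes stayed below 0 whichever library was left out. With all 6 libraries, both calls were lost without the filter, with quantile normalization and without the trend, and that of Lss with robust moderation.

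The control libraries varied more among themselves than the tachypaced ones in these genes. Over the 9 genes the median SD of log2(FPKM + 1) was 0.07 in tachypaced and 0.26 in control libraries, against 0.07 and 0.10 over all tested genes. Averaged over the 9 genes, the deviation from each gene's 6-library mean was -0.21, -0.22 and -0.15 in the tachypaced libraries, against -0.04, 0.27 and 0.36 in control replicates 1, 2 and 3. Control replicate 1 was the lowest control in 8 of the 9 genes, the exception being Sc5d, where 41.7% of tested genes had it lowest. On a scale with the mean of the other controls at 0 and the tachypaced mean at 1, it lay at 0.78 for Cyp51, 0.77 for Nsdhl, 0.76 for Hsd17b7 and 0.70 for Lss, but at 0.39 for Dhcr7 and 0.27 for Sc5d. Dhcr7 was therefore among the genes in which this library stood closer to its own group.

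**Figure D3:**
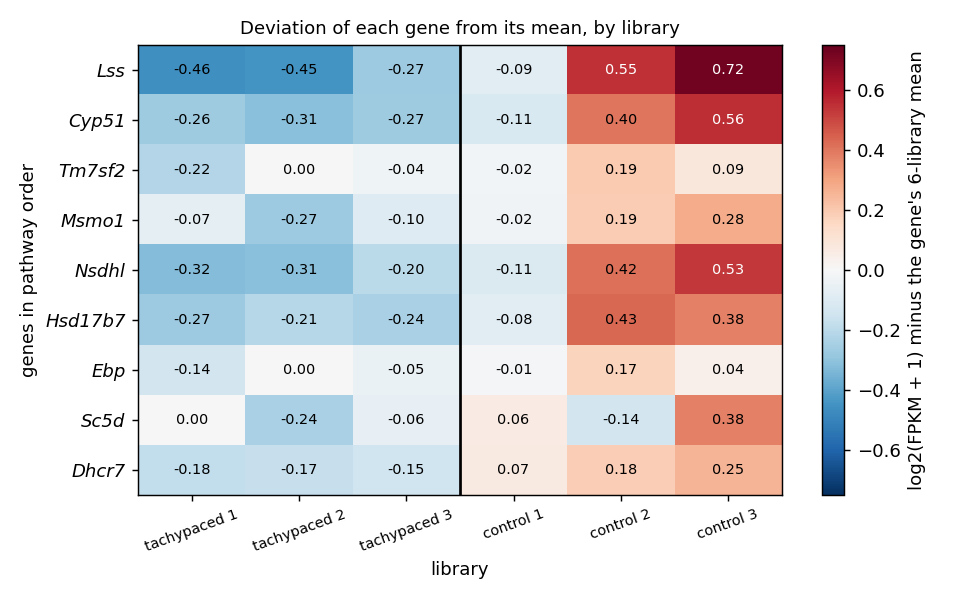
Deviation of log2(FPKM + 1) from each gene's own 6-library mean, for the 9 genes in pathway order (rows) in 3 tachypaced (left) and 3 control libraries (right of the line). Control replicates 2 and 3 hold the highest values, up to 0.72 for Lss, except in Sc5d, where control replicate 2 is at -0.14. Control replicate 1 lies between -0.11 and 0.07.

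The genes differed in level as well as in change. Msmo1 was the most abundant in both groups, at 42.5 ± 3.20 FPKM in tachypaced and 52.4 ± 5.61 FPKM in control libraries (SD, n = 3 each), above every other member in every library. It made up 40.04% to 43.9% of the summed FPKM of the 9 genes in tachypaced and 37.6% to 40.8% in control libraries. In tachypaced libraries Dhcr7 (9.21 ± 0.114), Cyp51 (8.90 ± 0.186), Lss (8.63 ± 0.714) and Nsdhl (8.21 ± 0.443) came next. Lss overlapped with each of these, while Dhcr7 and Cyp51 did not overlap with each other. Ebp (7.12 ± 0.379) and Tm7sf2 (6.63 ± 0.615) overlapped as well, and Hsd17b7 (5.44 ± 0.136) and Sc5d (4.39 ± 0.471) stood lower and apart. In control libraries the order was Lss (16.0 ± 4.62), Cyp51 (13.9 ± 3.38), Nsdhl (12.8 ± 3.03) and Dhcr7 (11.9 ± 0.824), all overlapping, and then Hsd17b7 (8.12 ± 1.68), Ebp (7.89 ± 0.583) and Tm7sf2 (7.60 ± 0.641), which overlapped too. Sc5d was the lowest at 5.25 ± 1.15 FPKM. Lss thus ranked 4 in tachypaced and 2 in control libraries, and Dhcr7 ranked 2 and 5. The 9 genes summed to 96.9 to 104.5 FPKM in tachypaced and 113 to 152 FPKM in control libraries.

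Set against Dhcr7 within each library, the other 8 genes did not share a pattern. The log2(FPKM + 1) of Lss minus that of Dhcr7 was -0.14, -0.14 and 0.02 in tachypaced libraries, against -0.01, 0.50 and 0.61 in control replicates 1, 2 and 3. For Cyp51 the same difference was -0.01, -0.07 and -0.05 in tachypaced libraries, against -0.11, 0.29 and 0.37 in the controls. In Lss, Cyp51, Nsdhl and Hsd17b7 control replicates 2 and 3 lay above all tachypaced libraries and control replicate 1 lay within or below them, so the groups overlapped. Nsdhl gave -0.18, -0.18 and -0.09 in tachypaced libraries, against -0.21, 0.20 and 0.24 in the controls, and Hsd17b7 gave -0.68, -0.63 and -0.68 in tachypaced libraries, against -0.74, -0.34 and -0.47 in the controls. Ebp ran the other way without overlap, at -0.39, -0.27 and -0.34 in tachypaced libraries, against -0.51, -0.45 and -0.65 in the controls. For Tm7sf2 control replicates 1 and 3 also lay below all tachypaced libraries, but control replicate 2 did not. Msmo1 and Sc5d overlapped between the groups. These differences were not tested.

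The rest of the sterol pathway was read from the same fit. The counts of the lists that follow stand beside the same 3.22% of all tested genes that were lower and 2.30% that were higher. Of the 4 tested genes of other post-squalene steps 1 fell and 0 rose. Of 12 tested genes of the mevalonate pathway up to squalene epoxide and its side branch 8 fell and 0 rose, with a median log2 fold change of -0.56. The largest changes among the called were those of farnesyl diphosphate synthase (Fdps), isopentenyl diphosphate isomerase (Idi1), HMG-CoA synthase (Hmgcs1) and squalene synthase (Fdft1), with log2 fold changes of -0.77, -0.75, -0.68 and -0.62. Sqle, squalene epoxidase, which makes the substrate of Lss, stood at 42.6, 43.8 and 42.6 FPKM in tachypaced libraries, against 45.0, 61.4 and 67.5 FPKM in control libraries (adjusted p = 0.0798, limma-trend).

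Proteins that pass electrons to these enzymes, listed together with partner proteins, gave no shared direction. Of 8 tested genes 1 rose and 0 fell, with a median log2 fold change of 0.01. Por, the reductase that feeds the P450 Cyp51, stood at 112, 127 and 110.5 FPKM in tachypaced libraries, against 100.1, 97.3 and 87.7 FPKM in control libraries (log2 fold change 0.29, adjusted p = 0.0516, limma-trend), named after its values were seen. The gene that rose was Cyb5r1, a cytochrome b5 reductase family member, at 50.9, 54.2 and 49.8 FPKM in tachypaced libraries, against 40.4, 29.0 and 29.8 FPKM in control libraries.

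Of 16 tested genes of the SREBP system and of cholesterol uptake 4 fell and 1 rose, with a median log2 fold change of -0.11. Srebf2, which encodes SREBP-2, fell, at 63.6, 62.3 and 66.9 FPKM in tachypaced libraries, against 74.4, 87.3 and 90.5 FPKM in control libraries (log2 fold change -0.38, SE 0.08, adjusted p = 0.0435, limma-trend). Insig1, which retains the SREBP complex in the reticulum and is itself a sterol-regulated gene, fell with a log2 fold change of -0.58, as did Tmem97 (-0.61), a membrane protein of sterol trafficking, and Srebf1 (-0.40), which encodes the SREBP of fatty acid synthesis. The gene that rose was Npc1, the lysosomal cholesterol exporter (log2 fold change 0.33), named after its values were seen. Of 8 tested LXR and efflux genes 1 rose, the cholesteryl ester hydrolase gene Nceh1 (log2 fold change 0.45), and 0 fell. Abca1, the cholesterol efflux pump, was below the level tested, at 0.107 to 0.144 FPKM in tachypaced and 0.0668 to 0.157 FPKM in control libraries. Of 14 tested fatty acid synthesis genes 9 fell and 0 rose, with a median of -0.52, the largest changes being those of the desaturase genes Scd3, Scd4 and Scd2 and of the fatty acid synthase gene Fasn.

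**Figure D4:**
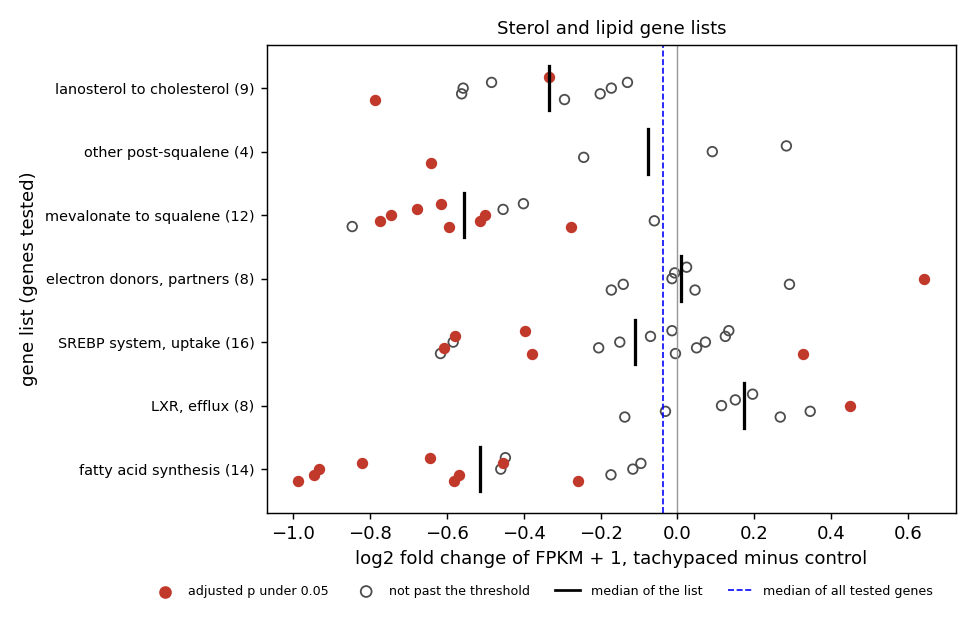
Log2 fold change of FPKM + 1 in tachypaced minus control libraries for every tested gene of 7 lists, with filled points past the adjusted p threshold of 0.05, a black line at each list's median and a dashed line at the median of all tested genes (-0.04). The 9 lanosterol to cholesterol genes all lie below 0. Their median of -0.33 lies between those of the mevalonate list (-0.56) and the list of electron donors and partners (0.01).

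The place of control replicate 1 differed between the neighbouring lists. It was the lowest control in 11 of the 12 mevalonate genes and 13 of the 14 fatty acid genes, against 41.7% of all tested genes. But it was lowest in 8 of the 16 SREBP and uptake genes and in 4 of the 8 electron donors and partners. Among the other post-squalene genes it was lowest in 2 of 4, and among the LXR and efflux genes in 1 of 8. Without it, where 18.8% of all tested genes were lower and 11.2% higher, 11 of the 12 mevalonate genes, 12 of the 14 fatty acid genes, 7 of the 16 SREBP and uptake genes and 2 of the 4 other post-squalene genes were lower. There 3 SREBP and uptake genes, 1 other post-squalene gene and 3 of the 8 LXR and efflux genes were higher. The 8 electron donors and partners gave 2 higher and 2 lower. The mevalonate list deviated on average by -0.32, -0.30 and -0.19 in tachypaced libraries, against -0.03, 0.39 and 0.45 in control replicates 1, 2 and 3. The LXR and efflux list deviated by 0.05, 0.09 and 0.11 in tachypaced libraries, against -0.03, -0.11 and -0.11 in the controls, so there control replicate 1 lay nearer to its own group. Of 18 proliferation markers 9 fell and 0 rose, beside 3.22% and 2.30% of all tested genes, and they summed to 477 to 506.5 FPKM in tachypaced and 554 to 763 FPKM in control libraries, with control replicate 1 at the low end. Without that library 16 of the 18 fell, beside 18.8% of all tested genes. The part of these genes and of the macrophage transcripts in the lower sterol enzyme levels was not tested.

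The expressed genes whose pattern over the 6 libraries was most like the average of the 9 were no sterol enzymes. Likeness was the root mean square difference between a gene's log2 deviations and the average deviations of the 9 genes. Because this difference counts size as well as shape, genes of the same shape with larger deviations had a larger difference. It was 0.02 on the log2 scale for Gbe1 (glycogen branching enzyme) and Eno1 (enolase), and up to 0.03 for Srsf4 (splicing), Cherp (reticulum calcium), Mthfd1 (folate metabolism), Gfm1 (mitochondrial translation), Vcp (protein extraction and degradation) and Ywhae (an adaptor of phosphorylated proteins), against a median of 0.23 over all tested genes. Set against the average of the other 8, the members themselves ran from 0.08 for Dhcr7 to 0.27 for Lss, with Lss going further and Ebp (0.19) less far than the average. The genes outside the pathway are the closest of those tested once names of predicted models were left out, and were chosen for that.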

How the data were processed

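The authors deposited FPKM values per gene name for 6 libraries. The submitters' processing notes name GRCm38 (mm10) as the build, and libraries were made from total RNA with a SMARTER mRNA kit, per the labels' protocols. For the aligner, the quantifier and the strand setting, nothing is given in the sources used here. Each column was assigned through its sample's description, titles gave the groups, and 0 pairs of libraries were identical. The low values of 1397 genes shared no common step between libraries, with at most 3.94% of log2 ratios within a bin of 0.05, and depth, counting intervals and detection floors are therefore not reported.

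Values were transformed to log2(FPKM + 1), and limma 3.58.1 in R 4.3.3 was run on the 10361 genes that averaged 1 FPKM or more (moderation with a trend, two-sided, tachypaced minus control without covariates), with Benjamini-Hochberg adjustment over all of them. Fold changes on this scale understate those of low genes. The steps were tested on simulated data with independent noise for each gene. No simulated library was set apart as control replicate 1 was, so that feature of the data was not covered. With 3 libraries a group, exact permutation p-values start at 0.1, so that test was left out. The labels name no batch. Members and lists were chosen with earlier results of these data known. Named genes were the 9 members, a fixed set of sterol genes, up to 4 called genes per list with the largest changes, and the 8 genes with the most similar pattern, without predicted models. Lists were described by counts and medians. Some of the fixed sterol genes are not reported here by name. BLAST 2.17.0, run with the longest protein-coding transcript of each member, found 0 transcripts of other genes at 90% identity over 200 bases or more in GENCODE M21. Other isoforms were not searched, and Tm7sf2 shares exon bases with Vps51 as given above.

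Alternatives were pseudocounts of 0.1 and 0.5, a minimum mean of 5 FPKM or no filter, quantile, common-total and median of ratios scaling, limma without the trend, with robust moderation or with library weights, an adjusted p threshold of 0.1, a replicate block and leaving out each library. Tables and figures were made in Python 3.11.15 (pandas 2.3.3, matplotlib 3.10.9).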

Additional observations from a re-analysis of the deposited data

How the results depend on the processing

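All 36 named and tested genes, which do not include Por and Npc1, kept their direction in all 645 alternative values. No filter, a minimum mean of 5 FPKM, no trend, robust moderation, the replicate block and the 0.1 threshold did not alter fold changes. Direction could therefore not change under them, and only the other alternatives could have reversed it. Lss lost its call with no filter (adjusted p 0.131), quantile normalization (0.058), no trend (0.0626) and robust moderation (0.051), and Dhcr7 with no filter (0.126), quantile normalization (0.052) and no trend (0.0608), by limma in each case. The cause was not tested. Without a filter more genes were tested (15992), and the SE was 0.207 for Lss and 0.06 for Dhcr7, against 0.178 and 0.068. Of the 9 genes, 0 were lower with no filter, quantile normalization or no trend, 5 with a minimum mean of 5 FPKM or the replicate block, 6 with a common total or a threshold of 0.1, and 7 with library weights, against 2. Leaving out one library gave 0 to 6. Over all genes the count of lower genes was 334. It was 0 with no filter or no trend, 184 with median of ratios, 4 with quantile normalization, 924 with a common total, 591 with the replicate block, 1942 with library weights, 1250 at a threshold of 0.1, and 0 to 1948 without one library. Higher genes numbered 238, and 0 with no filter, 13 with quantile normalization, 2 with no trend, 1154 with library weights, 724 at a threshold of 0.1, and 1 to 1160 without one library. In the neighbouring lists 22 genes were lower, 0 with no filter, quantile normalization or no trend, 34 with library weights, and 0 to 34 without one library. There 3 were higher, 0 with no filter, quantile normalization or no trend, 5 with a minimum mean of 5 FPKM, robust moderation or the replicate block, 8 with library weights, 7 at a threshold of 0.1, and 0 to 9 without one library. The upper end of each range was without control replicate 1. Same-numbered libraries correlated at 0.061, -0.034 and 0.157 in their deviations from group means, so the numbers do not pair them, and the block changed no call of Lss or Dhcr7. Precision is limited by 3 libraries per group and unknown depth.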
